A study of Vitis vinifera with 24 samples.

Results

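The most abundant transcripts of ripening Sauvignon blanc berries were described here across all libraries of a vineyard nitrogen trial near Bordeaux. They are the 100 genes with the highest mean RPKM (reads counted in a gene, scaled to its length and to the size of the library) over 24 libraries, among 25334 genes present in the expression tables of both years. Measured RPKM values therefore chose them, and their high level is a description and not a finding. Whole grape berries (Vitis vinifera) were collected from vines that received no added nitrogen (control) or ammonium nitrate on the soil at bud break and at flowering (soil N100). Berries were taken 28 days (v + 28) and 35 days (v + 35) after veraison, the onset of ripening, in 2013 and in 2014. This gave 8 groups of 3 biological replicates, all from field-grown, grafted vines. Both the clone and the rootstock of the vines changed between the years, so that season, clone and rootstock cannot be told apart. P-values measure the spread between these samples, and replicates of both stages may come from the same vineyard plots.

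After veraison the grape berry softens, accumulates sugar and turns over its cell walls. Berries of this age are known to hold large amounts of a few protein families, among them thaumatin-like proteins (osmotins), chitinases and glucanases of the pathogenesis-related (PR) class, and small metal-binding proteins. The osmotins and chitinases are also the main haze-forming proteins of white wine. Because RPKM is a share of each library, a rise of a few very abundant transcripts lowers the values of other genes. In whole-berry RNA, fewer cells of a type and less RNA per cell cannot be told apart.

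Each library held between 29.6 and 80.0 M (mega) reads counted in genes, and each member received at least 8219 reads in every library. Counting error was therefore small for all of them. All 100 passed the filter on low values in both years, which they could not fail by their choice. Libraries of soil N100 at v + 28 in 2013 were all deeper (44.2 to 53.9 M reads in genes) than their controls (30.3 to 35.6 M reads).

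The tables name genes by numbered IDs only, and 11 of the 100 members have a description in the tables of the study. The latter describe 648 genes that the study picked mostly for their response to nitrogen in these same samples, so the described members are not a neutral sample of the 100, and their nitrogen response is no independent evidence. The 11 comprised a pair of metal-handling proteins (metallothionein 3 at rank 7 and a copper chaperone at rank 36) and 3 PR-type proteins (a chitinase at rank 12, beta-1,3-glucanase 1 at rank 52 and osmotin 34 at rank 72). They also comprised a pair of expansins, proteins that loosen cell walls (expansin B2 at rank 25 and expansin A8 at rank 62, the latter also printed as expansin B2 in the study's table). The remaining 4 were senescence-associated gene 21 (SAG21, rank 35), the protein of rank 74 and a pair of unknown proteins at ranks 10 and 98. The study describes rank 74 by the terms electron carrier, heme binding, iron ion binding and oxygen binding. It is called the electron carrier below for short, and its kind of protein was not tested. None of the 30 described photosystem genes or 12 lipid transfer proteins and protease inhibitors reached the 100. Nor did any of 7 glutathione S-transferases, 3 water channels or 3 sugar transporters. The same held for 14 genes described as late embryogenesis abundant, dehydrin, oleosin or cruciferin. That list went by these words and left out SAG21, known in Arabidopsis as a late embryogenesis abundant protein. No role is given below for an undescribed ID, and these are named by their rank where they are many.

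The members were short genes, with a median length of 897.5 bases (181 to 2672) against 1372 bases over the 16899 genes tested in both years. RPKM divides by length, and 76 members were shorter than that median. When genes were ranked by reads instead, 77 of the 100 stayed among the first 100. The choice depended less on the average used: 98 stayed with the median and 99 with the geometric mean. The means of 2013 alone kept 95 and those of 2014 alone kept 94. The last members inside the limit had mean RPKM of 686, 685 and 679, and the first genes outside had 675, 662 and 658.

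One transcript stood far above the others. VIT_05s0049g00520 had a mean RPKM of 37471 and was the most abundant transcript in every library, at 21808 to 56053 RPKM. It was 2.48-fold above the next gene, VIT_05s0049g00760 (15088 RPKM), and 55.2-fold above rank 100. Ranks 3 to 6 lay close to each other. VIT_16s0022g00960 had a mean of 10980 RPKM, VIT_01s0010g02030 of 10971, VIT_02s0025g04330 of 10638 and VIT_12s0059g00590 of 9854. Metallothionein 3 (VIT_19s0014g02740), a small cysteine-rich protein that binds metal ions, followed at 9539 RPKM. VIT_05s0094g00340 (9217 RPKM), VIT_18s0072g00380 (8186 RPKM) and the unknown protein VIT_06s0004g02560 (6587 RPKM) completed the first 10. Of these 10 genes, 7 were among the first 10 of every library, while neighbours in ranks 3 to 9 overlapped in their library ranges.

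**Figure D1:**
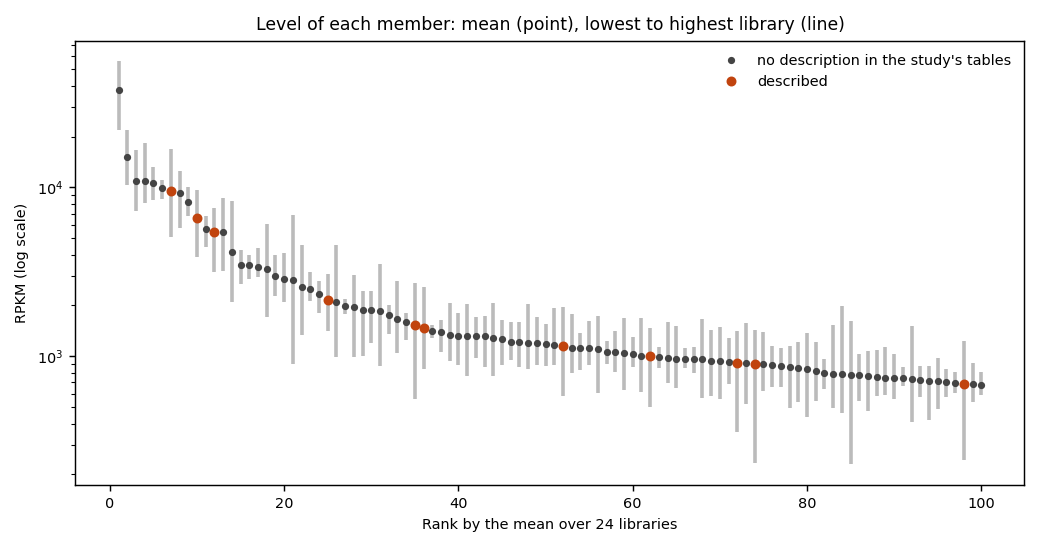
Mean RPKM (log axis) of the 100 members by rank, with the range over the 24 libraries as a vertical line and the 11 described members in colour. Levels fall from 37471 RPKM at rank 1 to 679 at rank 100, through 6587 at rank 10.

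The 100 members carried a large part of the RPKM sum. The first gene took 5.29% of the mean sum, the first 10 took 18.1%, the first 50 took 30.9% and all 100 took 37.1%. Over the libraries the share of the 100 ranged from 32.0 to 40.3% with a median of 37.8%. Without the first gene the median share of the others was 32.2%, and as a share of reads in genes the 100 held a median of 27.3% (22.4 to 29.2%). Shares are described without a test, since they are sums over genes picked for their level.

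In 2013 the share of all members was higher in each soil N100 library than in the controls of its stage. This held in RPKM, in reads and without the first gene, and in 2014 it depended on the measure. At v + 28 in 2013 the controls held 32.2, 32.0 and 33.5% and the soil N100 libraries 35.1, 35.5 and 37.7%. At v + 35 in 2013 the controls held 36.5, 34.0 and 37.2% and the soil N100 libraries 38.6, 39.2 and 40.3%. Neither pair overlapped, and the control at v + 28 in 2013 was the lowest of the 8 groups. In 2014 the controls at v + 28 held 37.9, 38.6 and 36.5% against 39.7, 38.8 and 39.6% with soil N100. At v + 35 in 2014 the controls held 36.4, 38.0 and 37.3% and the soil N100 libraries 38.0, 38.9 and 38.4%. These last groups were barely apart, with the highest control at 37.95% and the lowest soil N100 library at 37.98%. As a share of reads, the 2014 groups overlapped at v + 28 (25.9 to 28.5% in the controls, 27.7 to 29.1% with soil N100) and at v + 35 (27.1 to 27.7% against 27.6 to 28.8%). Without the first gene, the RPKM shares of 2014 overlapped as well, at 30.5 to 33.7% against 32.7 to 34.2% at v + 28 and 31.6 to 32.6% against 32.5 to 34.1% at v + 35. The first gene did not follow the order of 2013. Its share was highest (8.32%) in a control library, replicate 3 of v + 35 in 2013, and lowest (3.27%) in soil N100 replicate 1 and control replicate 1 of v + 28 in 2013.

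**Figure D2:**
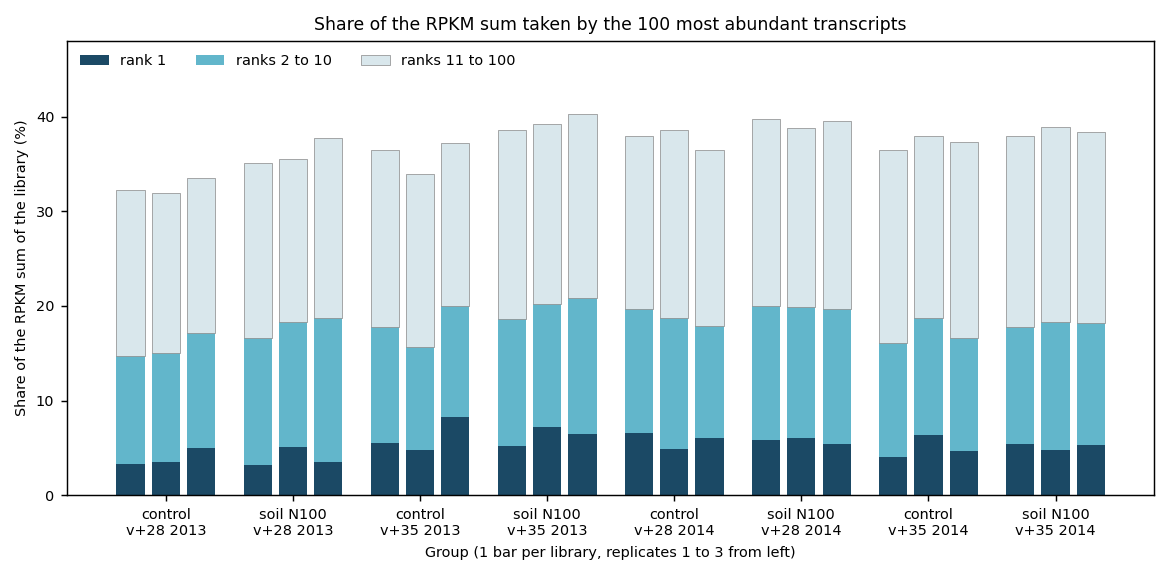
Percent of the RPKM sum in the 100 members, one bar per library, split into rank 1, ranks 2 to 10 and ranks 11 to 100, with the 3 replicates of each of the 8 groups side by side. The control at v + 28 in 2013 is lowest (32.0 to 33.5%), and soil N100 at v + 35 in 2013 is highest (38.6 to 40.3%).

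Membership was stable between libraries. Of the 100, 67 were among the first 100 of every library and 96 among the first 200 of every library, and 85 to 96 of them made up a library's own first 100. The deepest fall was that of the unknown protein VIT_04s0008g05010, to rank 435 in one library of 2014.

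Members differed widely in how much their level moved between the 8 groups. The ratio of highest to lowest group mean had a median of 1.65 (1.12 to 4.91) over the members and of 1.50 over all genes tested. It reached at least 2 in 26 members against 15.7% of all genes, and stayed under 1.25 in 15 members against 12.2%. The steadiest were VIT_17s0000g10430 (1.12-fold, 1276 to 1542 RPKM over the libraries), the member of rank 66 (1.13-fold) and VIT_12s0059g00590 at rank 6 (1.13-fold, 8572 to 11107 RPKM). Ranks 27 (1.15-fold) and 16 (1.18-fold) followed. The most variable were VIT_11s0016g04920 (4.91-fold) and VIT_01s0010g02460 (4.51-fold). They were followed by the electron carrier VIT_17s0000g05110 (3.68-fold), SAG21 (3.36-fold) and osmotin 34 (3.25-fold). The highest group mean was that of the control at v + 35 in 2014 for 34 members (19.1% of all genes tested), and the lowest was that of the control at v + 28 in 2013 for 28 members (8.48% of all genes). Over all genes the control at v + 28 in 2013 was instead the group most often highest (33.5%), as it was for 5 members. Single libraries weighed on these counts. Control replicate 3 at v + 35 in 2014 had the highest value of all libraries for 29 members, and control replicate 3 at v + 35 in 2013 had the lowest for 20.

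Some members had neighbouring gene numbers, and how often this holds among other genes was not tested. There were 10 runs of IDs on one scaffold no more than 50 numbers apart, and they held 23 members. The chitinase VIT_05s0094g00350 stood beside VIT_05s0094g00340 and VIT_05s0094g00330, and osmotin 34 (VIT_02s0025g04310) beside VIT_02s0025g04300 and VIT_02s0025g04330. Neighbours did not always vary together. VIT_02s0025g04330 was between 6.22 and 37.2 times as high as osmotin 34. The pair of metallothionein 3 and the copper chaperone VIT_19s0014g02730 kept the closest ratio of the neighbours. The former was 5.96 to 7.39 times as high as the latter in RPKM in all 24 libraries, while each gene alone varied 3.33-fold and 3.04-fold. Only uniquely aligned reads were counted and the library kit did not mark the strand. Values of near-identical or overlapping neighbours are therefore uncertain, and whether these pairs are such was not tested.

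Nitrogen supply was compared first within each stage and year, on log2(RPKM + 0.5) with limma over all genes of a year, where LFC is the log2 difference of the group means. A call needed an LFC of 0.6 or more in size and a p, adjusted after Benjamini-Hochberg, no higher than 0.05. At v + 28 in 2013 limma called 0 members (background 0.0694% of 17298 genes). With p not adjusted and the same fold, 9 members were called (background 3.2%). With recovered reads limma-voom called 0, and with the replicate number as a block limma called 2 (background 1.23%). At v + 35 in 2013 limma called 0 (background 0.00578%), and 7 with p not adjusted (background 2.73%). There limma-voom called 0 as well. Without soil N100 replicate 2 of v + 28 the count of limma at v + 28 became 9, all higher. Without soil N100 replicate 2 of v + 35 the count at v + 35 became 1. The share of all genes called is not reported here for fits with a library left out.

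When the stages of 2013 were averaged in the model, 7 members rose with soil N100 (background 1.16% higher) and 0 fell. This fit takes libraries of both stages as independent, although the study collected berries from each block at each stage. Its p-values may therefore be too small. limma-voom also called 7 higher and 0 lower, beside a larger background of 3.06% in either direction. Without regard to fold, 20 members passed the adjusted p of limma upwards (background 3.23%) and 4 downwards (background 13.6%). Of the 7, 5 were among the 11 described members and 2 among the 89 others, and the descriptions were chosen on these same samples. The median LFC was 0.08 over the members and -0.10 over all genes. After rescaling by median ratios these were 0.18 and -0.01, with 13 members higher and 0 lower. With quantile normalization the sign of the members' median flipped (-0.03 against -0.02 over all genes), with 6 higher and 1 lower. Over all genes the calls went from 200 higher and 147 lower to 282 and 73 with median ratios and 252 and 84 with quantiles. Leaving out one library gave 3 to 9 calls. The count was 3 without soil N100 replicate 3 of v + 28. It was 4 without control replicate 2 of v + 28, soil N100 replicate 1 of v + 28 or soil N100 replicate 3 of v + 35. When the stages of each replicate number were averaged before the test, which does not take the stages as independent, 0 members were called (background 0.0636%).

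Of the 3 PR-type proteins, osmotin 34 and beta-1,3-glucanase 1 were called higher with soil N100 in 2013 and the chitinase was not. Osmotin 34, a thaumatin-like protein induced by stress, had 356, 357 and 509 RPKM in the controls at v + 28 in 2013 and 600, 876 and 1283 RPKM with soil N100. At v + 35 it had 400, 541 and 664 RPKM in the controls and 718, 1120 and 1273 RPKM with soil N100. The groups did not overlap at either stage, and its LFC over both was 1.04 (SE 0.20, adjusted p = 0.0136). Beta-1,3-glucanase 1 (VIT_08s0007g06040), an enzyme that cuts callose and fungal cell walls, had 584, 613 and 806 RPKM in the controls at v + 28 in 2013 against 924, 1200 and 1963. At v + 35 the values were 641, 776 and 888 RPKM against 1027, 1538 and 1626, again without overlap. Its LFC was 0.91 (SE 0.18, adjusted p = 0.0142). The chitinase VIT_05s0094g00350, which cuts the chitin of fungal walls, had group means of 3460 and 5123 RPKM at v + 28 and 4356 and 6233 RPKM at v + 35, control first. It passed the adjusted p (0.0128) with an LFC of 0.54, short of the fold set for a call.

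The electron carrier and the stress and unknown proteins made up the other described calls. The electron carrier VIT_17s0000g05110 had 234, 378 and 424 RPKM in the controls and 510, 524 and 750 RPKM with soil N100 at v + 28 in 2013. At v + 35 it had 517, 585 and 654 RPKM against 1009, 1154 and 1439. Its LFC was 0.92 (SE 0.16, adjusted p = 0.0106). SAG21, known in Arabidopsis as a late embryogenesis abundant protein induced by senescence and oxidative stress, went from group means of 691 to 1227 RPKM at v + 28 and from 758 to 1150 RPKM at v + 35. Its LFC was 0.68 (SE 0.18, adjusted p = 0.0296). The unknown protein VIT_06s0004g02560 at rank 10 went from 5231 to 7872 and from 4165 to 6700 RPKM, with an LFC of 0.63 (SE 0.12, adjusted p = 0.0124). With quantile normalization this last LFC fell to 0.29, short of the fold. Both undescribed calls had LFC of similar size, with 0.72 (adjusted p = 0.0173) for VIT_19s0090g01340 and 0.71 (adjusted p = 0.028) for VIT_14s0030g01220. With each of the 12 libraries of 2013 left out in turn, osmotin 34, beta-1,3-glucanase 1 and the electron carrier stayed called every time. VIT_19s0090g01340 stayed called in 11 of these 12 fits (not without soil N100 replicate 3 of v + 28), the unknown protein of rank 10 in 8, VIT_14s0030g01220 in 5 and SAG21 in 4.

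None of the metal-handling and cell wall members was called. Metallothionein 3 had 6913, 7443 and 8633 RPKM in the controls at v + 28 in 2013 and 9501, 11336 and 16861 RPKM with soil N100. At v + 35 its groups overlapped (5058 to 7720 against 5616 to 8840 RPKM), and the LFC over both stages was 0.47 (adjusted p = 0.0816). The copper chaperone, a protein that carries copper ions to their targets, had LFC of 0.70 and 0.33 at the 2 stages beside 0.68 and 0.26 for metallothionein 3. Its LFC over both was 0.52 (adjusted p = 0.0371). Expansin B2 (VIT_15s0021g02700) and expansin A8 (VIT_13s0067g02930) had LFC of 0.53 (adjusted p = 0.0159) and 0.56 (adjusted p = 0.0215). All of these 4 missed the fold, and metallothionein 3 missed the adjusted p as well.

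**Figure D3:**
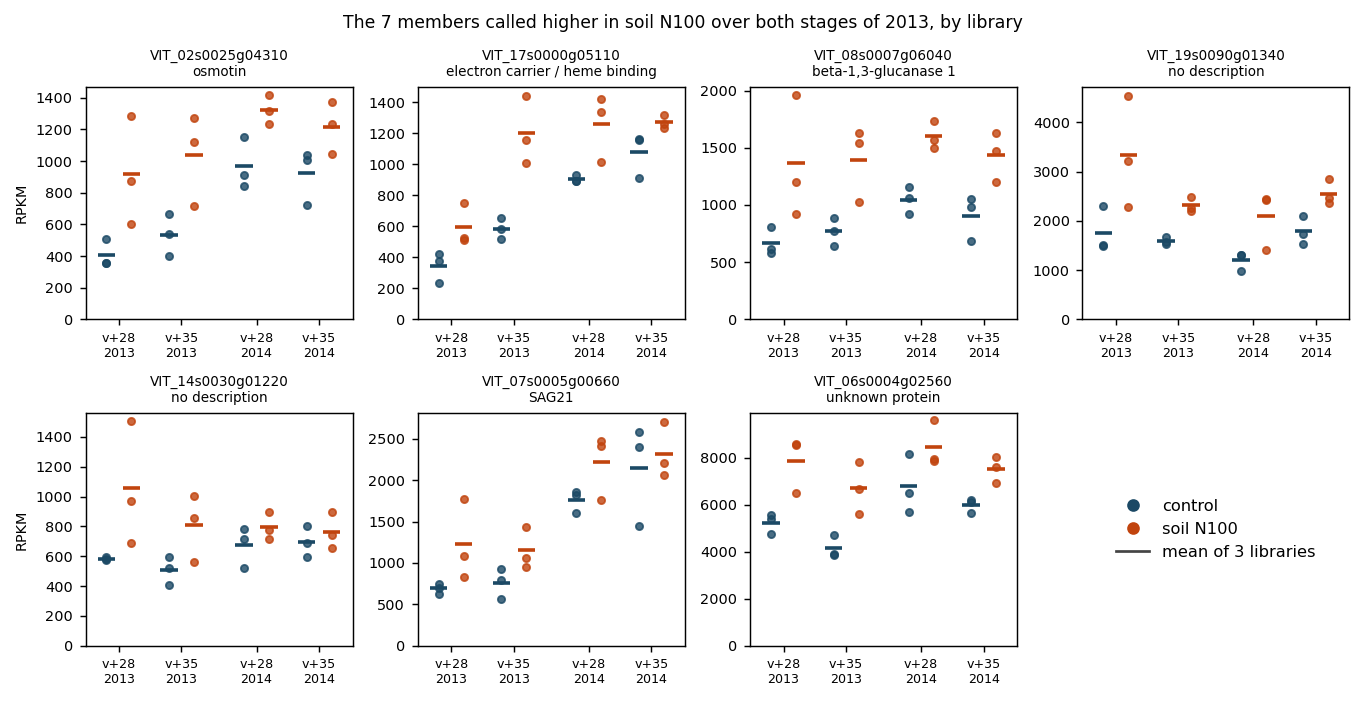
RPKM of the 7 members called for nitrogen over both stages of 2013, one panel per member and one point per library, with a line at the mean of 3 libraries, control and soil N100 side by side for each stage and year. Osmotin 34 stands at 356 to 509 RPKM in the controls and 600 to 1283 RPKM with soil N100 at v + 28 in 2013, and the controls of 2014 start higher.

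In 2014 limma called 0 members at v + 28 (background 0.0%) and 0 at v + 35 (background 0.00582%), and limma-voom called 0 at each stage. With p not adjusted and the same fold, limma called 2 at v + 28 (background 0.355%) and 1 at v + 35 (background 0.565%). Over both stages limma called 0 (background 0.0408%) and limma-voom 0. With p not adjusted, limma called 2 over both stages (background 0.408%). Beta-1,3-glucanase 1 came closest. It had 924, 1058 and 1156 RPKM in the controls and 1496, 1567 and 1734 RPKM with soil N100 at v + 28, and an LFC of 0.65 (SE 0.12, adjusted p = 0.143) over both stages. Osmotin 34 had an LFC of 0.43 and the electron carrier one of 0.35. No member was called for a nitrogen difference that changed between stages (background 0.0% in 2013 and 0.0% in 2014). None was called for one that changed between years at v + 28 (background 0.0%) or at v + 35 (background 0.0%). A different response of the members in the 2 years was therefore not shown.

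The ranges of the libraries gave a view without a model. In 2013 the 3 soil N100 libraries exceeded all 3 controls at both stages for 12 members (background 1.73%) and fell short of them for 1 (background 10.3%), the member of rank 76. At all 4 stages and years this held for 3 members (background 0.189%) and the reverse for 0 (background 0.385%). The 3 were beta-1,3-glucanase 1, osmotin 34 and the electron carrier, all from the study's list of genes picked on these samples.

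Some marker sums of other tissues differed with nitrogen supply in 2013. Marker genes were named from the study's descriptions, mostly of genes picked for their nitrogen response in these samples. Their nitrogen response is therefore no independent evidence. The summed RPKM of 30 photosystem genes, picked by the study for their response to nitrogen, was 519 to 656 in the controls and 758 to 1129 with soil N100 at v + 28 in 2013, and 502 to 603 against 610 to 1336 at v + 35. The sum of 3 phloem protein genes was 9.68 to 13.9 against 20.7 to 46.7 RPKM at v + 28 and 12.1 to 19.9 against 31.0 to 41.6 at v + 35. The sum of 3 genes of dividing cells overlapped at v + 28 (43.2 to 65.1 RPKM with soil N100, 62.2 to 92.5 in the controls). At v + 35 it was lower with soil N100 (52.7 to 68.0 against 97.5 to 109 RPKM), and that of 4 seed genes overlapped at both stages. In 2014 the photosystem sums overlapped at v + 28 (843 to 1116 in the controls, 989 to 1156 with soil N100) but not at v + 35 (699 to 834, then 860 to 1044). Sums of dividing cells and seed genes overlapped at both stages of 2014, and those of phloem at neither. None of these 40 genes was a member and none was at 0 in all libraries. The part of these tissues and of the depth in the nitrogen results was not tested.

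Late ripening was compared as v + 35 against v + 28. In 2013 limma called 6 members higher (background 3.93%) and 3 lower (background 4.53%) in the control. With soil N100 it called 7 higher (background 3.72%) and 2 lower (background 4.58%), in libraries not shared with the control. Over both treatments 7 members rose (background 4.14%) and 1 fell (background 4.56%). Of the calls in single treatments, 5 rose in both, and the share of all genes that did so is not reported here. After rescaling by median ratios the counts over both treatments were 10 and 0, and with quantile normalization 5 and 2. Over all genes the split of 716 higher and 789 lower became 903 and 566 with median ratios and 806 and 623 with quantiles. Without control replicate 2 of v + 35 the count in the control went from 9 to 5, and the share of all genes is not reported here for that fit.

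The largest rise was that of VIT_01s0010g02460 at rank 85. It had 229, 307 and 316 RPKM at v + 28 and 555, 579 and 793 RPKM at v + 35 in the control of 2013. With soil N100 it had 259, 286 and 334 and then 565, 631 and 668 RPKM. Its stages did not overlap in either treatment, and its LFC was 1.13 (SE 0.11, adjusted p = 2.67e-05). The electron carrier rose by an LFC of 0.91 (SE 0.16), and was the only member called both for nitrogen and for ripening within a year. VIT_01s0146g00260 had the narrowest error among the calls, with group means of 1232 and 1975 RPKM in the control and 1155 and 2110 RPKM with soil N100. Its LFC was 0.78 (SE 0.08, adjusted p = 2.31e-05). The other rises over both treatments were those of rank 84 (LFC 0.72), rank 18 (0.66), the most abundant transcript VIT_05s0049g00520 (0.65, SE 0.19, adjusted p = 0.0162) and rank 44 (0.61). The rank 1 transcript was not called without control replicate 1 of v + 28, soil N100 replicate 1 of v + 28 or control replicate 3 of v + 35 (LFC 0.54 to 0.74 over all libraries left out). Quantile normalization gives the highest gene the same value in every library, so its change cannot be seen on that scale. Rank 14 was called in the control (LFC 0.62) and rank 21 with soil N100 (0.69). Rank 14 had no overlap between stages with soil N100 either (2336 to 3174 and then 3392 to 4488 RPKM), and the test by stage above called no difference between treatments.

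Fewer members fell. VIT_14s0108g00810 had 1394, 1451 and 1511 RPKM at v + 28 and 889, 996 and 1095 RPKM at v + 35 in the control of 2013. With soil N100 it went from 1365, 1432 and 1938 to 915, 929 and 1020 RPKM, and its LFC over both treatments was -0.63 (SE 0.09). Expansin A8 fell in the control (LFC -0.63, SE 0.19, adjusted p = 0.0309), from 798 to 869 RPKM down to 500 to 623 RPKM. The copper chaperone fell with soil N100 (LFC -0.66, SE 0.21, adjusted p = 0.0406), where its group mean went from 1920 to 1191 RPKM. VIT_02s0033g01120 (LFC -0.70) and the member of rank 61 (LFC -0.62) fell in the control. With 1 of the 12 libraries left out, expansin A8 stayed called in 7 of 12 fits and the copper chaperone in 4 of 12. Whether a fall called in one treatment differed from that of the other treatment is the test by stage above, which called none.

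In 2014 limma called 0 members in the control (background 2.08%) and 0 with soil N100 (background 0.734%), and limma-voom called 0 in either. With p not adjusted and the same fold, 3 were called in the control (background 4.65%) and 1 with soil N100 (background 3.02%). Without control replicate 2 of v + 35 the count of limma in the control became 12 (10 higher and 2 lower). Without control replicate 3 of v + 28 it became 1. The share of all genes is not reported here for these fits. Over both treatments 1 member rose (background 1.09%) and 1 fell (background 2.28%). VIT_19s0090g01350 rose by an LFC of 0.61 (SE 0.16, adjusted p = 0.0192), from group means of 3964 to 6736 RPKM in the control and from 3947 to 5531 RPKM with soil N100. The unknown protein VIT_04s0008g05010 had an LFC of -0.79 (SE 0.18, adjusted p = 0.014), from 681 to 367 and from 717 to 446 RPKM. The count of 2 became 4 without control replicate 2 of v + 35. It became 1 without control replicate 1 of v + 28, soil N100 replicate 2 of v + 28, control replicates 1 or 3 of v + 35, or soil N100 replicate 2 of v + 35.

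In both treatments and both years, all libraries of v + 35 lay above those of v + 28 for 5 members (background 1.41%) and below for 2 (background 4.11%). The former included VIT_19s0090g01350 and VIT_01s0010g02460. The latter were VIT_18s0001g01130 and VIT_13s0019g04280, for example at 1507 to 1601 RPKM at v + 28 and 988 to 1192 RPKM at v + 35 in the control of 2013 for VIT_18s0001g01130.

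The change over late ripening differed between the years for 10 members, near the share of 7.9% over all genes tested in both years. In a test added after the values were seen (Welch test of the change in 2014 minus that in 2013, adjusted over all genes tested in both years), 4 members had a higher change in 2014 (background 3.35%) and 6 a lower one (background 4.55%). Leaving out one library gave 8 to 12 calls. Both of the most abundant transcripts were among the 6. VIT_05s0049g00520 went from 21808, 25313 and 34148 RPKM at v + 28 to 32999, 38234 and 56053 RPKM at v + 35 in the control of 2013, and from 36468, 42123 and 45990 to 31357, 37024 and 44824 RPKM in 2014. Its LFC over both treatments was 0.65 in 2013 and -0.13 in 2014, a difference of -0.78 (SE 0.24, adjusted p = 0.0176). VIT_05s0049g00760 had LFC of 0.48 and -0.21 (difference -0.70, SE 0.19, adjusted p = 0.00813). Each of these calls held in 7 of 9 other settings of scaling, filter and fit. There the difference ranged from -0.82 to 0 for VIT_05s0049g00520, whose value is fixed by quantile normalization. It ranged from -0.74 to -0.44 for VIT_05s0049g00760. Both transcripts had reached by v + 28 of 2014 a level within the range that they had at v + 35 of 2013. In the opposite direction, VIT_03s0063g02610 at rank 39 had an LFC of -0.46 in 2013 and 0.34 in 2014, a difference of 0.81 (SE 0.14, adjusted p = 0.000275). Clone and rootstock changed with the year, and their part cannot be told apart from that of the season.

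**Figure D4:**
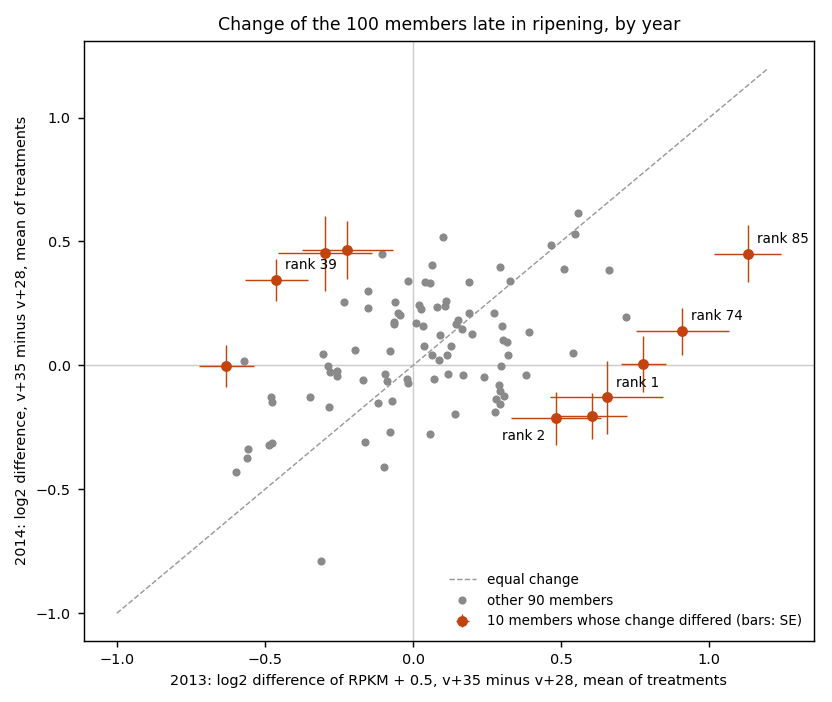
LFC of v + 35 against v + 28, mean of both treatments, 2013 on the horizontal axis and 2014 on the vertical axis, one point per member. The 10 members whose change differed between years are in colour with bars of 1 SE, among them ranks 1 and 2 (0.65 and 0.48 in 2013, -0.13 and -0.21 in 2014).

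Levels of 2013 and 2014 are set side by side as a description only, since the tables of the years were made separately. The median ratio of 2014 to 2013 was 1.11 over the members and 0.961 over all genes tested in both years. Within a treatment and stage, the libraries of the years did not overlap for 55 members in the control at v + 28 (background 48.8%) and 60 in the control at v + 35 (background 47.2%). With soil N100 this held for 46 members at v + 28 (background 42.2%) and 61 at v + 35 (background 49.9%). In all 4 pairs 13 members were higher in 2014 (background 4.96%) and 8 lower (background 6.96%).

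For 6 members none of the 12 libraries of one year reached the range of the other, with 5 higher in 2014 (background 1.83%) and 1 lower (background 1.5%). VIT_11s0016g04920 at rank 21 was 3.04-fold higher in 2014. Its group means were 1174 and 1579 RPKM in the controls of 2013 and 3429 and 5369 RPKM in those of 2014, at v + 28 and v + 35. VIT_13s0064g01210 was 1.78-fold higher, followed by ranks 79 (1.70-fold), 41 (1.49-fold) and 77 (1.30-fold). VIT_08s0007g08310 had 0.524 times its level of 2013, with control means of 1197 and 1265 RPKM in 2013 and 648 and 530 RPKM in 2014. SAG21 and the electron carrier had 2.21 and 1.66 times their mean level of 2013 in 2014, but their years overlapped with soil N100, at v + 28 for SAG21 and at v + 35 for the electron carrier (group means of 1201 and 1272 RPKM). The phloem marker sum was 48.8 to 87.1 RPKM in 2014 and 9.68 to 46.7 RPKM in 2013, and its part in these differences was not tested.

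**Figure D5:**
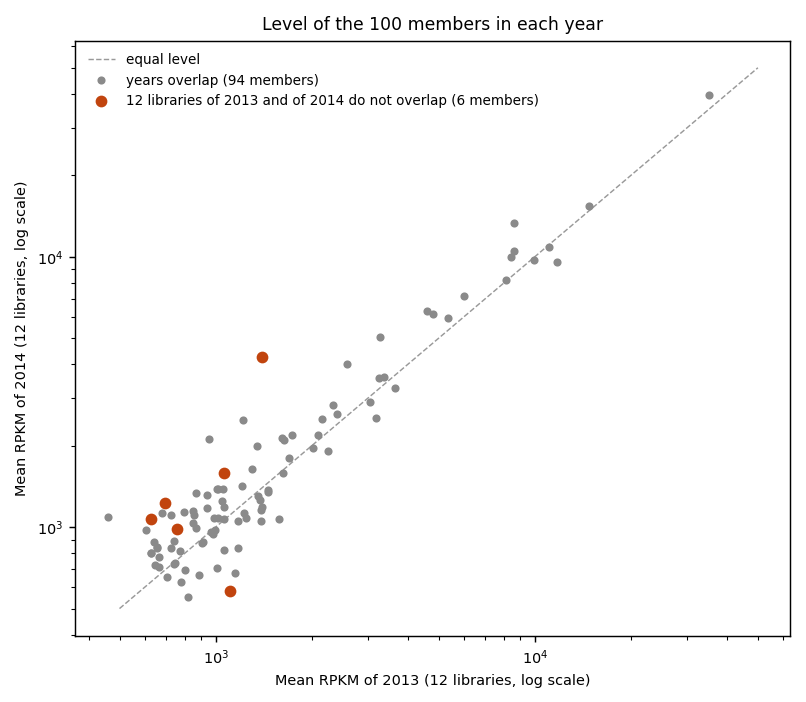
Mean RPKM of each member over the 12 libraries of 2013 (horizontal, log axis) and of 2014 (vertical, log axis), with a dashed line at equal level. The 6 members whose libraries of the years do not overlap are in colour, and the one farthest above the line is VIT_11s0016g04920, with 895 to 1946 RPKM in 2013 and 2691 to 6819 RPKM in 2014.

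Of the 100 members, 24 were called in at least one of these tests (background 17.7% of the 16899 genes tested in both years) and 76 in none. For nitrogen 7 were called in at least one contrast (background 1.99%), and for ripening within a year 15 (background 13.5%).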

How the data were processed

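Whole-berry RNA was read as single libraries per replicate. Reads were processed by the authors with CASAVA 1.8.2, TopHat2 2.0.10, Bowtie2 2.1.0 and HTSeq 0.5.4p3, per the labels, and uniquely aligned reads were counted over the V1 gene models of the 12X grape assembly. The deposited values are RPKM that the authors computed for each year in a table of its own. Whole reads were recovered from the RPKM steps for 100% of values (tolerance 0.001 reads) and served for depth, shares of reads, an alternative ranking and limma-voom.

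Genes in both tables were ranked by mean RPKM over 24 libraries. Tests used limma 3.58.1 in R 4.3.3 on log2(RPKM + 0.5), per year over 12 libraries, for genes that averaged 0.5 RPKM or more, with trended empirical Bayes variances and Benjamini-Hochberg adjustment over all genes. Scripts were tested on simulated data. Between years, differences of LFC were tested by a Welch test with the same adjustment. The replicate number was not used as a block in the main fits. Alternatives were other pseudocounts, filters and scalings, limma-voom, libraries left out and other rankings.

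Members and lists were chosen with earlier results of these data known. The test of ripening between years and the counts of members without overlap were added after the values were seen. Named were the first 10 members, the described members, called members, the most and least variable members, those without overlap of years, members beside the limit of the choice and runs of neighbouring IDs. Of the IDs, 0 of 26740 matched the reference table, so descriptions come from the study's own tables. Fold changes on this scale slightly understate changes of low genes.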

Additional observations from a re-analysis of the deposited data

Results flagged for a closer look

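The change from v + 28 to v + 35 (mean of both treatments) differed between 2014 and 2013 for 10 members in the Welch test, beside 7.9% of all genes tested, with adjusted p from 0.000275 to 0.0176. Given as the LFC of 2014 minus that of 2013, the difference was -0.78 for VIT_05s0049g00520 (rank 1), -0.70 for VIT_05s0049g00760 (rank 2), -0.77 for VIT_01s0146g00260 (rank 29), -0.81 for VIT_02s0087g00400 (rank 44), -0.77 for the electron carrier VIT_17s0000g05110 and -0.68 for VIT_01s0010g02460 (rank 85). It was 0.75 for VIT_19s0090g01340 (rank 26), 0.69 for VIT_05s0020g01170 (rank 31), 0.81 for VIT_03s0063g02610 (rank 39) and 0.63 for VIT_14s0108g00810 (rank 51). VIT_01s0010g02460 and the electron carrier had positive LFC in both years (1.13 and 0.45, and 0.91 and 0.14, 2013 first), whereas the LFC of ranks 1, 2, 26, 31, 39 and 44 had opposite signs. Season, clone and rootstock cannot be told apart in these differences.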

How the results depend on the processing

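Other pseudocounts, filters, scalings and limma-voom kept most counts of called members within 1.5-fold of those reported. For nitrogen over both stages of 2013 (7 members), no filter on low values gave 4, median ratios 13, no fold threshold 24 (16.9% of all genes), stages averaged per replicate 0, and leaving out one library 3 to 9. For ripening over both treatments of 2014 (2 members), no filter gave 1, quantile normalization 1, no fold threshold 25 (25.4% of all genes), and leaving out one library 1 to 4. Leaving out one library gave 0 to 9 for nitrogen at v + 28 and 0 to 1 at v + 35 in 2013, 5 to 11, 6 to 12 and 6 to 11 for ripening in the control, with soil N100 and over both in 2013, 0 to 12 for ripening in the control of 2014, and 8 to 12 for ripening between years.

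With unadjusted p and the same fold, nitrogen in 2013 gave 9 members at v + 28 (3.2% of all genes) and 7 at v + 35 (2.73%). In 2014 it gave 2, 1 and 2 at v + 28, at v + 35 and over both (0.355, 0.565 and 0.408% of all genes). Ripening in 2014 gave 3 in the control and 1 with soil N100, below the shares of all genes (4.65 and 3.02%). Nitrogen between years at v + 35 gave 1 (1.73% of all genes). Without the fold threshold, ripening gave 25, 25 and 41 members in the control, with soil N100 and over both in 2013 (24.7, 23.3 and 43.0% of all genes), 1 in the control of 2014 (4.87%) and 25 between years (31.6%). A fit with only the libraries compared gave 1 for ripening with soil N100 in 2014 (2.08% of all genes).

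Replicate numbers did not clearly pair the samples. The median correlation of deviations in 2013 was 0.078 for same-numbered libraries and -0.032 for differently numbered ones. In 2014 it was -0.12 and 0.10. The labels do not say whether the numbers mark plots, so these values do not settle a pairing in 2013. A fit with the replicate number as a block called 2 members for nitrogen at v + 28 in 2013 and moved no other count of members beyond 1.5-fold. Over all genes it moved the calls for nitrogen in 2013 from 12 to 212 at v + 28 and from 1 to 22 at v + 35, and those for ripening in 2014 from 358 to 212 in the control and from 126 to 55 with soil N100.

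As a share of reads the members held a median of 27.3%, and without the first gene 32.2%, against 37.8%. Rescaling raised the members with a 2-fold range of group means from 26 to 33. Of 1090 alternative values for 45 calls of single members, 990 stayed called, 100 did not and 0 reversed.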
